A study of Mus musculus with 6 samples.

Results

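The genes described here are 45 genes of mitosis and the spindle checkpoint, chosen by name from their known roles among the 37991 genes counted in RNA-seq libraries of mouse pre-B cells. All 45 were found in the annotation by symbol, and all 45 were among the 16683 genes with enough counts to be tested. The cells were sorted from bone marrow of C57BL/6 mice at 3 stages, with 2 libraries a stage and 6 in all. Wild type libraries came from animals of 4 to 6 weeks without the transgene, littermates of the transgenic mice. Premalignant libraries came from E{mu}Myc/+ mice of 4 to 6 weeks, and malignant libraries from E{mu}Myc/+ mice of 10 to 20 weeks that had developed spontaneous lymphoma. In these heterozygous Eμ-Myc mice, the immunoglobulin heavy chain enhancer Eμ drives the Myc transgene in cells of the B lineage. Wild type and premalignant cells were gated as B220 high, IgM low and IgD low. For malignant cells the labels give the same gate, whereas the study's methods give B220+, IgM- and IgD-. Wild type and premalignant donors were female and malignant donors were of both sexes, so that age, sex and stage cannot be told apart for the malignant libraries.

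Mitosis divides the replicated chromosomes between daughter cells. Its entry is driven by Cdk1 bound to cyclins A and B, which Cdc25 phosphatases activate, and Polo-like and Aurora kinases then build the spindle. Until every kinetochore is attached to microtubules, the spindle checkpoint holds back the anaphase-promoting complex (APC/C), the ubiquitin ligase whose activation through Cdc20 releases separase and ends mitosis. Transcripts of most of these genes rise late in the cell cycle, under the control of the DREAM and MuvB complexes, B-Myb and Foxm1, so that their levels in a sorted population are widely used as a readout of cycling cells. Large pre-B cells in the bone marrow proliferate before they become small resting pre-B cells. In bulk libraries such as these, a larger share of cells in mitosis and more RNA per mitotic cell cannot be told apart.

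Levels are given as CPM, counts divided by a library total that TMM normalization had adjusted, which makes one gene comparable between libraries. The libraries held 30031100 to 53453055 counts, so that 3 counts corresponded to 0.0526 to 0.1075 CPM, far under the level of every member. Myc, which checks the labels, measured 33.8 and 41.4 CPM in wild type, 1164 and 1155 CPM in premalignant and 1732 and 1578 CPM in malignant libraries. The pre-B markers summed to 8070 and 8800 CPM in wild type, 3750 and 3680 CPM in premalignant and 3380 and 3030 CPM in malignant libraries, with 0 of the 13 markers at 0. The surrogate light chain genes Vpreb1 and Igll1 lay at 115 to 197 CPM in wild type, 4.88 to 18.8 CPM in premalignant and 0.146 to 7.56 CPM in malignant libraries. The other lineages differed between libraries as well. Myeloid markers summed to 780.0 and 1710.0 CPM in wild type, 233 to 250.0 CPM in premalignant and 55.8 to 114 CPM in malignant libraries, and erythroid markers to 345 and 1350.0, 83.8 to 186 and 68.6 to 80.2 CPM.

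The members' counts made up 1.14% and 0.785% of all counts in the wild type libraries, 1.23% and 1.23% in the premalignant libraries and 0.761% and 0.962% in the malignant libraries. The mean level of 44 of the 45 members was highest in premalignant cells, a stage in which 18.9% of all genes tested peaked. Pttg1 was the exception, with its highest mean in wild type. The lowest mean lay in wild type for 31 members and in malignant cells for 14 members.

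**Figure D1:**
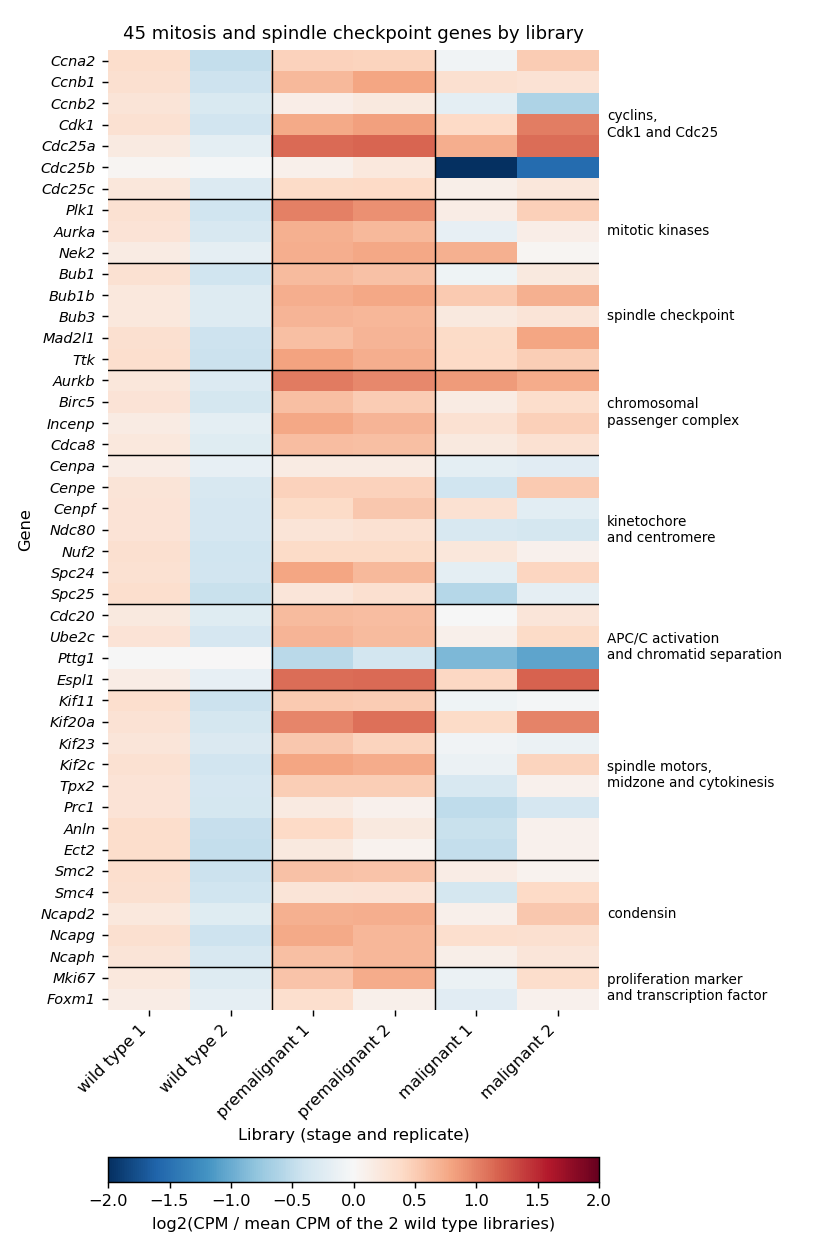
Normalized level of the 45 genes (rows, grouped by role) in the 6 libraries (columns), as the log2 ratio of CPM to the mean of the 2 wild type libraries. Red is above and blue below that mean. The 2 premalignant columns are alike, wild type replicate 1 lies above replicate 2 in 44 of 45 genes, and Cdc25b is low in both malignant libraries.

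The wild type libraries stood apart from each other in these genes. Wild type replicate 1 was higher than replicate 2 in 44 of the 45 members, with a median ratio of 1.52, while the median log2 difference over all genes tested was 0.002. For 50 DNA replication genes the median log2 difference between the same libraries was 0.43. In the premalignant stage the median absolute log2 difference between replicates was 0.063, and no member exceeded 0.224. In the malignant stage replicate 2 was the higher in 33 members, with a median ratio of 1.19. Wild type replicate 2 was also the library with the higher myeloid and erythroid sums given above, and the part of those cells in the gap was not tested. Each comparison of the members with wild type is therefore given below with and without these libraries.

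Between premalignant and wild type cells, 21 of the 45 members rose and 0 fell (edgeR's quasi-likelihood test, FDR of at most 0.1 and a log2 fold change of at least 0.5 in size). Over all 16683 genes tested, 19% were called higher and 20.3% lower in this comparison. The log2 fold change was above 0 for 44 members, with a median of 0.61 against -0.08 for all genes, and 26 members had an unadjusted p under 0.05. Within replicate 1 the median was 0.33 and within replicate 2 it was 0.92, so that its size depended on the wild type library used. Leaving out wild type replicate 1 raised the number called to 33 and the median to 0.93. Without wild type replicate 2 the median was 0.325 and 2 members kept the call, Cdc25a and Aurkb. Leaving out premalignant replicate 1 or 2 also left these 2 called, but with the median at 0.604 and 0.602. With libraries scaled to their totals alone, 7 members were called higher and 1 lower, Pttg1. Here and below, the share of all genes called was read only in the fit of all 6 libraries with TMM normalization. Counts from the other fits have no such share beside them, and how far they follow the calls over all genes was not tested.

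From premalignant to malignant cells, 0 members rose and 1 fell, Cdc25b, where 3.73% of all genes were called higher and 2.45% lower. All 45 fitted log2 fold changes were below 0, with a median of -0.40 against 0.04 for all genes, and 10 members had an unadjusted p under 0.05. Replicate 1 alone gave a median of -0.56 and replicate 2 one of -0.30. DESeq2 called 5 members lower, and edgeR without a filter on low counts called 14 lower. Leaving out malignant replicate 1 gave 3 calls and leaving out malignant replicate 2 gave 11, all lower. With either premalignant library left out, 0 were called.

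Against wild type, 6 members were higher and 2 lower in malignant cells, where 24.9% of all genes were called higher and 24.3% lower. The share called higher among the members was below that of all genes. The 6 were Cdk1, Cdc25a, Bub1b, Aurkb, Espl1 and Kif20a, all of which had also risen in premalignant cells, and the 2 were Cdc25b and Pttg1. The median log2 fold change was 0.16, against -0.02 for all genes, and the replicates disagreed in sign, with -0.19 in replicate 1 and 0.56 in replicate 2. It fell to -0.11 without wild type replicate 2 and was -0.13 with library totals alone, a scaling that also turned the split of calls to 1 higher and 6 lower. That scaling moved the median of all genes to -0.315, and relative to all genes the members lay 0.18 above in both scalings. Without wild type replicate 1, 17 members were called higher and 2 lower, whereas without wild type replicate 2 the split was 2 higher and 6 lower. Upper-quartile scaling gave 3 higher and 4 lower. Cdc25a, Cdc25b and Pttg1 kept their calls against wild type in every other fit with 6 libraries and with each library left out in turn.

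**Figure D2:**
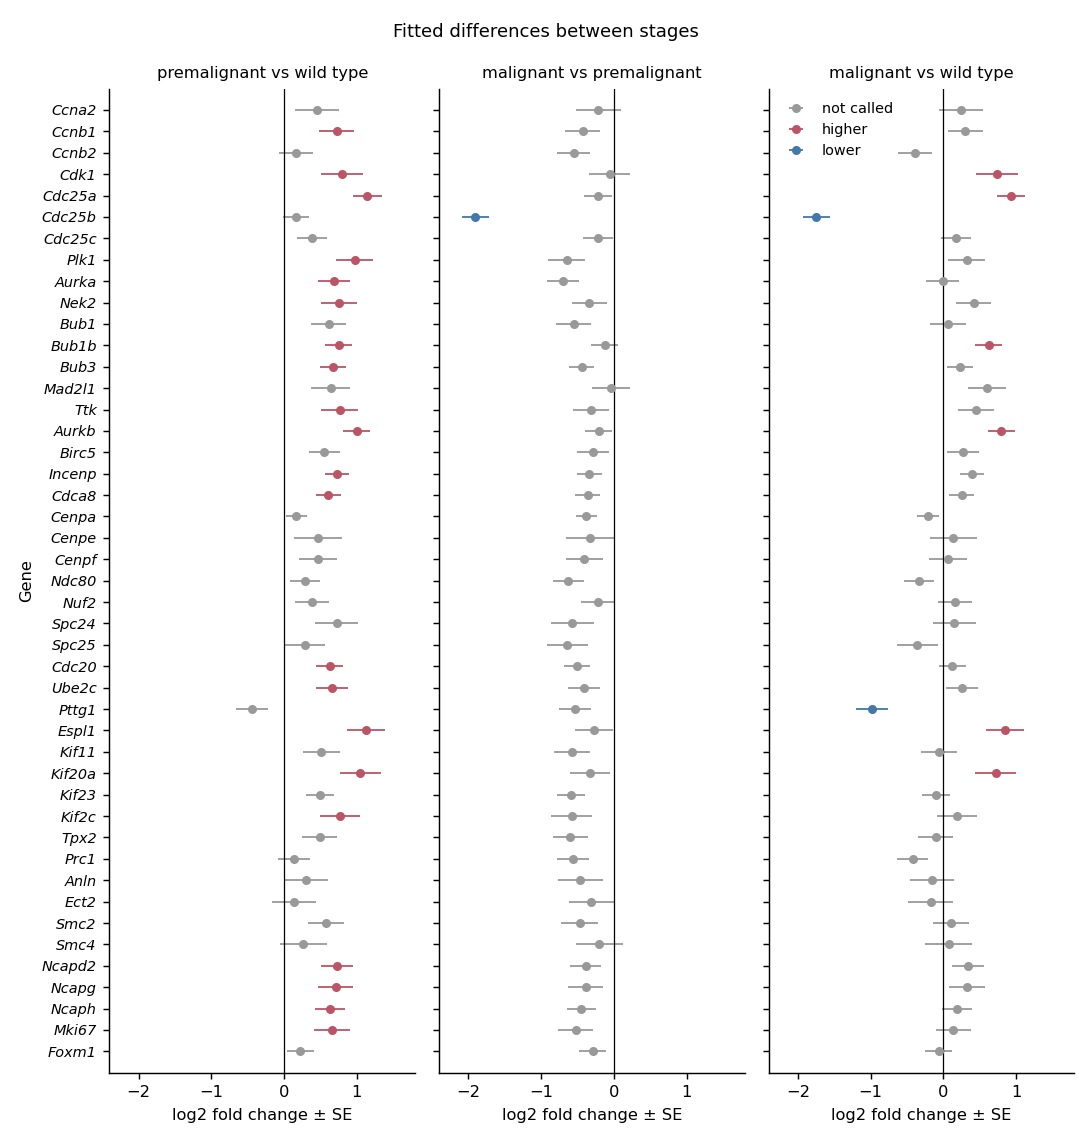
Fitted log2 fold change of each gene with its standard error (SE) in the 3 comparisons between stages, with 2 libraries a stage. The SE was derived from the test statistic of the fit of all 6 libraries. Red points were called higher, blue points lower and grey points were not called. The first panel holds 21 red points, the second 1 blue point (Cdc25b) and the third 6 red and 2 blue points (Cdc25b and Pttg1).

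Among the cyclins, Cdk1 and the Cdc25 phosphatases, 3 of 7 rose in premalignant cells, where 19% of all genes were called higher. The same share applies to the premalignant counts of each role below, which rest on few genes and were not tested against it. Cdk1, the kinase at the centre of mitotic entry, measured 149 and 93.55 CPM in wild type, 206 and 215 CPM in premalignant and 159.5 and 246 CPM in malignant libraries. Both premalignant libraries lay above both wild type libraries, and the lower malignant library lay just above the higher wild type library. The log2 fold change was 0.79 ± 0.29 (SE; edgeR adjusted p = 0.0798) in premalignant and 0.74 ± 0.28 (SE; edgeR adjusted p = 0.0804) in malignant against wild type cells. Ccnb1 encodes cyclin B1, the activating partner of Cdk1. It measured 155 and 93.5 CPM in wild type, 196 and 215 CPM in premalignant and 155 and 152 CPM in malignant libraries, and rose by 0.725 ± 0.24 (SE; edgeR adjusted p = 0.0646) on the log2 scale in premalignant cells. Its 4217 exonic bases include 46.7% with a near-identical copy elsewhere in the genome, so that its counts are uncertain. Ccna2, encoding cyclin A2, was not called and ranged from 217 to 425 CPM over the 6 libraries. Ccnb2, encoding cyclin B2, ranged from 101 CPM in malignant replicate 2 to 185 CPM in wild type replicate 1, without a call.

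The 3 Cdc25 phosphatases, which remove the inhibitory phosphates from cyclin-dependent kinases, went different ways. Cdc25a (mm9 chr9:109778083-109796392) measured 52.2 and 40.4 CPM in wild type, 101 and 104 CPM in premalignant and 76.9 and 99.9 CPM in malignant libraries. No transgenic library overlapped the wild type libraries. It had the highest log2 fold change of all members in premalignant cells, 1.145 ± 0.19 (SE; edgeR adjusted p = 0.00893), a 2.21-fold rise, and was 0.93 ± 0.19 (SE; edgeR adjusted p = 0.0108) above wild type in malignant cells. Cdc25b (mm9 chr2:131012685-131024233) measured 404 and 385 CPM in wild type, 423 and 457.5 CPM in premalignant, and 99.4 and 136 CPM in malignant libraries. Both malignant libraries lay far under the other 4. The gene fell by 1.90 ± 0.185 (SE; edgeR adjusted p = 0.0142) on the log2 scale from premalignant to malignant cells, a level 3.74-fold lower, and by 1.74 ± 0.18 (SE; edgeR adjusted p = 0.00132) against wild type. With premalignant replicate 1 or 2 left out the log2 fold change was -1.96 and -1.845, and the call was lost (edgeR adjusted p = 0.203 and 0.158, where the other alternatives gave 1.31e-18 to 0.0816). Cdc25c was not called in any comparison and ranged from 19.96 to 31.5 CPM.

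**Figure D3:**
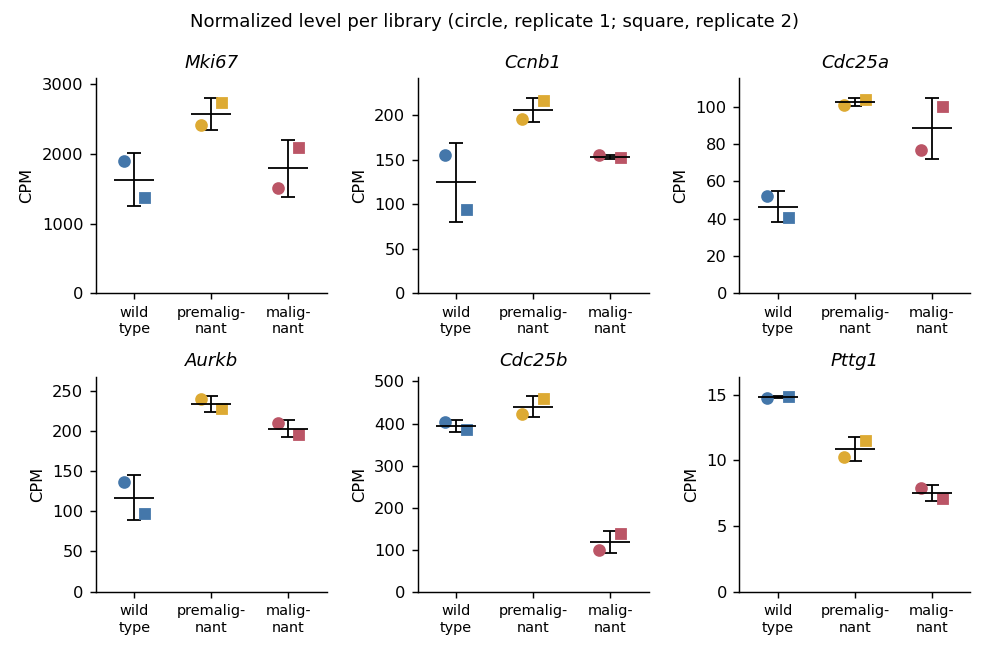
CPM of 6 genes in each library by stage; circles are replicate 1, squares replicate 2, and the horizontal line with its bar is the mean ± SD of the 2 libraries. Mki67, Ccnb1, Cdc25a and Aurkb are highest in premalignant cells, Cdc25b drops to 99.4 and 136 CPM in malignant cells, and Pttg1 is lowest there.

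All 3 mitotic kinases of the list rose in premalignant cells, and 0 of 3 was called in a comparison with malignant cells. Plk1, the Polo-like kinase that acts from mitotic entry to cytokinesis, measured 119 and 73.0 CPM in wild type, 194 and 182 CPM in premalignant and 106 and 134 CPM in malignant libraries. Its premalignant log2 fold change was 0.97 ± 0.25 (SE; edgeR adjusted p = 0.0318), and the malignant libraries lay on either side of wild type replicate 1. Aurka, the Aurora kinase of centrosomes and spindle poles, measured 74.3 and 49.3, 102 and 97.1, and 54.9 and 67.8 CPM in the same order. It rose by 0.685 ± 0.22 (SE; edgeR adjusted p = 0.0621), and both malignant libraries lay within the range of the wild type libraries. Nek2, a centrosomal kinase, measured 128 and 101 CPM in wild type, 190.0 and 195 CPM in premalignant and 188 and 118 CPM in malignant libraries. The malignant libraries differed from each other more than the wild type libraries did. In Nek2, 14.3% of the exonic bases have a near-identical copy elsewhere in the genome.

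Of the 5 spindle checkpoint genes, Bub1b, Bub3 and Ttk rose in premalignant cells, while Bub1 and Mad2l1 were not called. Bub1b encodes BubR1, a subunit of the mitotic checkpoint complex that binds and inhibits Cdc20. Its level was 257 and 185.5 CPM in wild type, 365 and 378 CPM in premalignant and 319.6 and 363 CPM in malignant libraries. All transgenic libraries lay above both wild type libraries, with log2 fold changes of 0.75 ± 0.19 (SE; edgeR adjusted p = 0.0285) in premalignant and 0.62 ± 0.19 (SE; edgeR adjusted p = 0.0372) in malignant cells. Bub3, its partner at kinetochores, measured 184 and 133, 254.5 and 250.0, and 181 and 190.3 CPM, and rose by 0.67 ± 0.18 (SE; edgeR adjusted p = 0.0334) in premalignant cells. Ttk, the Mps1 kinase that starts checkpoint signalling, rose by 0.76 ± 0.25 (SE; edgeR adjusted p = 0.0645), from 60.3 and 35.3 CPM to 83.4 and 78.8 CPM. Bub1, the kinase that recruits checkpoint proteins, measured 118 and 72.3 CPM in wild type, 148 and 142.5 CPM in premalignant and 89.7 and 109 CPM in malignant libraries. Mad2l1, encoding Mad2, the inhibitor of Cdc20 made at unattached kinetochores, measured 116 and 70.4, 142 and 149, and 122 and 162 CPM. For both genes the 2 premalignant libraries lay above the 2 wild type libraries, and the adjusted p did not pass.

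The chromosomal passenger complex corrects faulty kinetochore attachments and steers cytokinesis. Its kinase Aurkb and the subunits Incenp and Cdca8 rose in premalignant cells, and Birc5 (survivin) did not pass. Aurkb (mm9 chr11:68859149-68865166) measured 137 and 97.0 CPM in wild type, 240.1 and 227 CPM in premalignant and 210.3 and 195 CPM in malignant libraries. The 4 transgenic libraries lay above both wild type libraries. Its log2 fold change was 0.997 ± 0.19 (SE; edgeR adjusted p = 0.0122) in premalignant and 0.79 ± 0.19 (SE; edgeR adjusted p = 0.0169) in malignant cells. The scaffold Incenp measured 281 and 218, 424 and 401.5, and 308 and 347 CPM, a premalignant rise of 0.73 ± 0.17 (SE; edgeR adjusted p = 0.0225). Cdca8, encoding borealin, measured 141 and 104 CPM in wild type and 188 and 185 CPM in premalignant libraries, and rose by 0.61 ± 0.17 (SE; edgeR adjusted p = 0.0428). Birc5 ranged from 95.6 to 184 CPM over the 6 libraries, with the premalignant libraries highest.

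Of the 7 kinetochore and centromere genes, 0 was called in any comparison. Over all genes, 19% were called higher and 20.3% lower in premalignant against wild type cells. With 7 genes, a count of 0 was not tested against these shares. These were Cenpa, the centromeric histone H3 variant, the kinetochore motor Cenpe and the large outer kinetochore protein Cenpf. The other 4 were the subunits of the microtubule-binding Ndc80 complex (Ndc80, Nuf2, Spc24 and Spc25). Their median log2 fold change in premalignant against wild type cells was 0.38, under the 0.61 of all members. Spc24 had the highest of the 7, 0.72, and measured 58.1 and 35.9 CPM in wild type, 81.2 and 73.8 CPM in premalignant and 41.0 and 63.6 CPM in malignant libraries. Cenpe varied most within a stage, at 145 and 275 CPM in the malignant libraries. In Spc24 and Nuf2, 17.7% and 14.7% of the exonic bases have a near-identical copy elsewhere.

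Among the genes of APC/C activation and chromatid separation, Cdc20, Ube2c and Espl1 rose in premalignant cells. Cdc20, the activator of the APC/C and target of the checkpoint, measured 167 and 123 CPM in wild type, 226 and 222 CPM in premalignant and 144 and 172 CPM in malignant libraries, a premalignant rise of 0.625 ± 0.185 (SE; edgeR adjusted p = 0.0464). Ube2c, the ubiquitin-conjugating enzyme of the APC/C, measured 151 and 99.1, 200.5 and 194, and 134 and 164 CPM and rose by 0.66 ± 0.22 (SE; edgeR adjusted p = 0.0672). Of its exonic bases, 22.8% lie in exons of Tnnc2, and the library kit does not mark strand. Espl1, encoding separase, the protease that cuts cohesin, measured 118 and 95.5 CPM in wild type, 230.4 and 234 CPM in premalignant and 142 and 242 CPM in malignant libraries. Its log2 fold changes were 1.12 ± 0.26 (SE; edgeR adjusted p = 0.0234) in premalignant and 0.85 ± 0.26 (SE; edgeR adjusted p = 0.0409) in malignant cells. Pttg1 (mm9 chr11:43233752-43239753), encoding securin, the inhibitor that holds separase inactive until anaphase, went the other way. It measured 14.8 and 14.9 CPM in wild type, 10.2 and 11.5 CPM in premalignant and 7.93 and 7.10 CPM in malignant libraries (525 and 198 counts in replicate 2 of wild type and malignant). The 3 stages did not overlap, and the gene fell by 0.98 ± 0.22 (SE; edgeR adjusted p = 0.0147) on the log2 scale from wild type to malignant cells.

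Among the 8 genes of spindle motors, midzone and cytokinesis, Kif20a and Kif2c rose in premalignant cells. Kif20a, a kinesin of the central spindle, measured 114.5 and 73.2 CPM in wild type, 185 and 202 CPM in premalignant and 122 and 187 CPM in malignant libraries. Its log2 fold changes were 1.04 ± 0.28 (SE; edgeR adjusted p = 0.0357) and 0.72 ± 0.28 (SE; edgeR adjusted p = 0.0831) against wild type. Exons of the neighbouring gene Cdc23 cover 32.3% of its exonic bases, so that its counts are uncertain. Kif2c, a kinesin that depolymerizes microtubules at centromeres, measured 83.8 and 51.9, 117 and 114, and 62.4 and 92.4 CPM and rose by 0.77 ± 0.28 (SE; edgeR adjusted p = 0.0822). The members not called were Kif11, the motor that separates the spindle poles, Kif23, Tpx2, Prc1, Anln and Ect2. Kif11 had the highest level of these 6, at 486.5 and 285 CPM in wild type, 553 and 548 CPM in premalignant and 363 and 377 CPM in malignant libraries. For the 8 genes together the median log2 fold change was 0.49 in premalignant against wild type, -0.57 in malignant against premalignant and -0.10 in malignant against wild type cells.

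Condensin compacts the chromosomes. Its regulatory subunits Ncapd2, Ncapg and Ncaph rose in premalignant cells, and the ATPase subunits Smc2 and Smc4, which condensin I and II share, were not called. Ncapd2 measured 587 and 432 CPM in wild type, 838 and 846 CPM in premalignant and 546 and 741 CPM in malignant libraries, a premalignant log2 fold change of 0.725 ± 0.22 (SE; edgeR adjusted p = 0.0496). Ncapg and Ncaph rose by 0.71 ± 0.24 (SE; edgeR adjusted p = 0.0699) and 0.63 ± 0.20 (SE; edgeR adjusted p = 0.0608). Exons of Lcorl cover 13.3% of the exonic bases of Ncapg. Smc4 measured 623 and 378 CPM in wild type, 598 and 605 CPM in premalignant and 393 and 657 CPM in malignant libraries, so that the stages overlapped. Smc2 measured 301 and 177, 359 and 354, and 264 and 251.5 CPM.

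Mki67 encodes Ki-67, the coat protein of mitotic chromosomes used as a marker of cycling cells. It measured 1895 and 1364 CPM in wild type, 2413 and 2734 CPM in premalignant and 1503 and 2080 CPM in malignant libraries. Both premalignant libraries lay above the other 4, and the wild type and malignant libraries overlapped. Its premalignant rise was 0.66 ± 0.24 (SE; edgeR adjusted p = 0.085) on the log2 scale. That call was lost with upper-quartile scaling, with library totals alone and in the fit with a replicate block. Over all alternative fits, including those with a library left out, the log2 fold change of Mki67 ran from 0.444 to 0.922. Foxm1, a forkhead transcription factor of late cell cycle genes, was not called and measured 209.5 and 167, 237 and 203, and 161 and 199.6 CPM.

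Per length, Mki67 and Ncapd2 were the most abundant members in each stage. On the RPKM scale, which divides counts by exon length and by the unadjusted library total, Mki67 averaged 181 ± 40.5 (SD, n = 2) in wild type, 248 ± 18.1 (SD, n = 2) in premalignant and 163 ± 40.5 (SD, n = 2) in malignant libraries. Ncapd2 averaged 126 ± 26.3, 181 ± 1.56 and 131 ± 30.7 RPKM (SD, n = 2 each), so that the 2 genes did not overlap in wild type or premalignant libraries and overlapped in malignant libraries. Cdc25b stood at rank 3 in wild type at 119 ± 3.24 RPKM (SD, n = 2), within the range of Ncapd2, and stood at rank 28 in malignant cells at 29.0 ± 6.96 RPKM (SD, n = 2). Pttg1 was the least abundant in each stage, at 8.32, 5.28 and 3.44 RPKM, below the range of the next gene, Cdc25c, in each.

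Most members followed a common course over the 6 libraries. The correlation of a member's log2 CPM with the mean of the other 44 had a median Pearson's r of 0.904, and was above 0.9 for 23 members and above 0.7 for 40. These are descriptions over 6 libraries of 3 stages that share depth and normalization. Bub1 was closest to the rest, at 0.996, followed by Ncaph at 0.988 and Cdc20 at 0.987. Pttg1, at -0.20, and Cdc25b, at 0.275, were the least alike, followed by Ccnb2 at 0.54.

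Since the members moved together, the 250 bases before their gene starts were read for the motifs known from late cell cycle promoters. These are the cell cycle genes homology region (CHR, TTTGAA on either strand), bound by MuvB complexes, and the CCAAT box (CCAAT on either strand), bound by NF-Y. RefSeq promoter windows (GRCm38.p6) were found for 36 members, and 9 had none in the table used here. A CHR was present in 38.9% of the 36 and a CCAAT box in 77.8%. Of all 27025 genes with such a window, 18.3% and 37.5% held them, and of the 10066 genes tested with one, 13% and 40.5%. Both motifs stood in 36.1% of the members with a window, against 7.34% of all genes with one and 5.9% of genes tested with one. For these shares, all windows of a gene were pooled. Among 88 other mitosis genes, 30.7% held a CHR, 54.5% a CCAAT box and 19.3% both. Among 41 DNA replication genes the shares were 19.5%, 61% and 14.6%. Of 60 CCAAT matches in members, 41 lay within 100 bases of the start, and so did 11 of 18 CHR matches. Matches were counted in each window, and some members, such as Bub3 and Ect2, have overlapping windows. The same bases were therefore counted more than once in places, and the match counts are not counts of distinct sites. No CHR match shared a base with a CCAAT match. A match is a string of letters in the window and does not show binding.

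For each role the most abundant member was taken that kept at least 150 bases and a motif outside annotated genes. Cdc25b, Nek2 and Ncapd2 were passed over by that rule, and no member of the chromosomal passenger complex met it. Of the 8 sequences, the 4 with both motifs are printed below, 5′ to 3′ in the direction of the gene, with CHR and CCAAT matches in capitals. The Cdk1 sequence (chr10:69352913-69353162, strand -) holds 2 CHR and 3 CCAAT matches, and the Mki67 sequence (chr7:135716451-135716629, strand -) holds the same numbers. The Kif11 (chr19:37376132-37376381, strand +) and Smc2 (chr4:52438971-52439220, strand +) sequences hold 1 of each. Bases inside an annotated gene were left out, so that the Mki67 sequence ends 72 bases before the start of its window's transcript.
Cdk1: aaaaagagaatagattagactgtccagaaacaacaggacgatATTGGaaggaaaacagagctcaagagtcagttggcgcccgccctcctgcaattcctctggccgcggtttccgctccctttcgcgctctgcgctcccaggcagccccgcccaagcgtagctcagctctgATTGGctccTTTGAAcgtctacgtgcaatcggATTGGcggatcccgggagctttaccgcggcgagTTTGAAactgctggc
Kif11: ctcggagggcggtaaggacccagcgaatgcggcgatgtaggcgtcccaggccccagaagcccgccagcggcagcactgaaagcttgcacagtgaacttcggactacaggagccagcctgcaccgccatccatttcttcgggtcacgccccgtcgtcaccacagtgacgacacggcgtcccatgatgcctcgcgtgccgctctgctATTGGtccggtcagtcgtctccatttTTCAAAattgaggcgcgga
Smc2: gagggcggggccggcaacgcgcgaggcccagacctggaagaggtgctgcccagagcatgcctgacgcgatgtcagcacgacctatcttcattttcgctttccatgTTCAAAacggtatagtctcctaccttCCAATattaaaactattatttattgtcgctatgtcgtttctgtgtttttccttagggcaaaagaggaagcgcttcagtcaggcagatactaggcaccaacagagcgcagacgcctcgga
Mki67: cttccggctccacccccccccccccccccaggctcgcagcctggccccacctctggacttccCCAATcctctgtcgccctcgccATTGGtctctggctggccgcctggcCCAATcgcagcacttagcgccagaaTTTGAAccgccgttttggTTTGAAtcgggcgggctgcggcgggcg

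**Figure D4:**
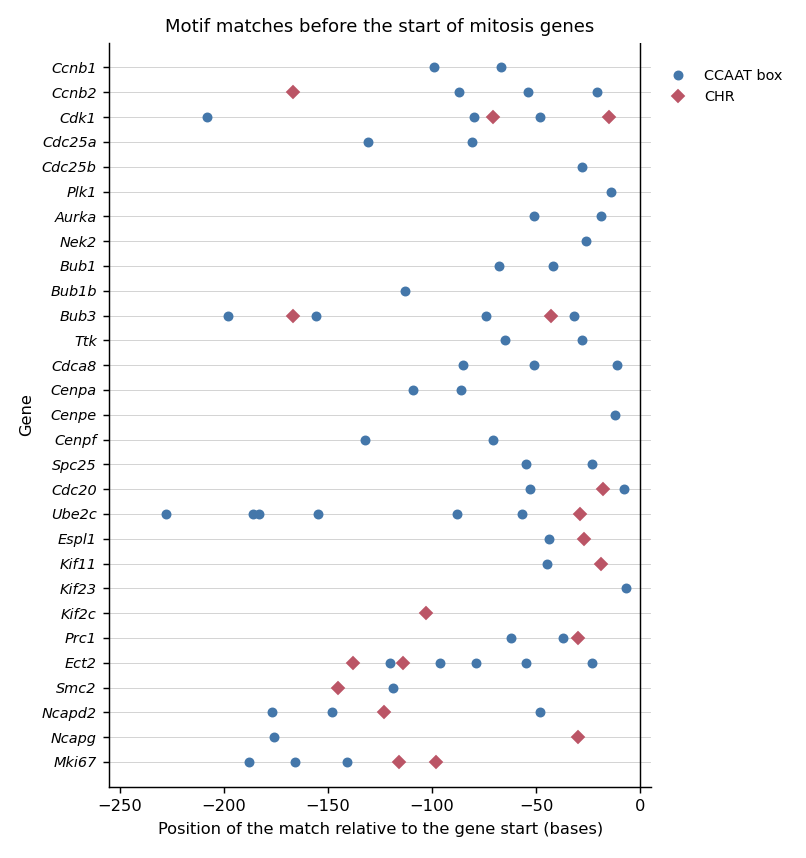
Distance in bases from the gene start (0) of each CHR (red diamonds) and CCAAT match (blue circles) in the 250 bases before it, for the members with a match in their RefSeq window. 28 members hold a CCAAT box and 14 a CHR, and 41 of the 60 CCAAT matches lie within 100 bases of the start. Where windows of a gene overlap, as in Bub3 and Ect2, the same site appears more than once.

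Other genes of mitosis, 108 in all and all of them tested, were read beside the members. In premalignant against wild type cells 43 rose and 0 fell (19% and 20.3% of all genes), with a median log2 fold change of 0.51. Without wild type replicate 2 the numbers were 15 and 0, and without replicate 1 they were 65 and 0. From premalignant to malignant cells 0 rose and 3 fell (3.73% and 2.45% of all genes), with a median of -0.31. At FDR of at most 0.05, 0 were called. Against wild type, 24 were higher and 4 lower in malignant cells, where all genes gave 24.9% and 24.3%, with a median of 0.215. The split was 13 higher and 15 lower with library totals alone, 15 and 9 without wild type replicate 2 and 40 and 2 without wild type replicate 1. The 3 genes with the largest rises in malignant against wild type cells were the centromere gene Cenpw, the Cdk subunit Cks1b and Bora, the activator of Aurora A. Cenpw measured 11.8 and 8.69 CPM in wild type, 25.9 and 28.3 CPM in premalignant and 31.75 and 40.3 CPM in malignant libraries, 1.81 ± 0.23 (SE; edgeR adjusted p = 0.00215) above wild type on the log2 scale. Cks1b measured 77.2 and 55.5, 154 and 159, and 143 and 191 CPM. It rose by 1.33 ± 0.22 (SE; edgeR adjusted p = 0.00492) and Bora by 1.29 ± 0.17 (SE; edgeR adjusted p = 0.00245). The levels of Bora were 48.0 and 36.4, 76.85 and 78.1, and 107 and 99.9 CPM, and the 3 stages did not overlap.

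The 3 largest falls were those of Arhgef39, the centriole gene Cenpj and Lin37, a subunit of the MuvB core. Arhgef39 measured 28.9 and 23.3 CPM in wild type, 21.1 and 16.2 CPM in premalignant and 7.89 and 9.07 CPM in malignant libraries. It fell by 1.62 ± 0.23 (SE; edgeR adjusted p = 0.00337) against wild type and by 1.14 ± 0.23 (SE; edgeR adjusted p = 0.0664) against premalignant cells. Cenpj measured 48.5 and 43.0 CPM in wild type and 25.4 and 26.2 CPM in malignant libraries, and Lin37 25.9 and 24.3 CPM and 18.4 and 16.0 CPM. Cenpj fell by 0.83 ± 0.15 (SE; edgeR adjusted p = 0.00635) and Lin37 by 0.55 ± 0.18 (SE; edgeR adjusted p = 0.0521) against wild type. Spag5, a spindle protein, and Depdc1b were the other genes that fell from premalignant to malignant cells. Spag5 measured 166.5 and 137, 227 and 224, and 145 and 151 CPM, and fell by 0.61 ± 0.14 (SE; edgeR adjusted p = 0.0898). Depdc1b measured 40.0 and 26.8, 44.3 and 45.4, and 22.7 and 23.8 CPM, and fell by 0.95 ± 0.22 (SE; edgeR adjusted p = 0.0851).

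The 50 DNA replication genes served as the comparison with S phase. In premalignant cells 40 rose and 0 fell (19% and 20.3% of all genes), with a median log2 fold change of 0.89. In malignant cells 36 were above and 1 below wild type (24.9% and 24.3% of all genes), with a median of 0.84. Between premalignant and malignant cells 1 rose and 1 fell (3.73% and 2.45% of all genes). Within replicates 1 and 2 the median was 0.67 and 1.14 in premalignant against wild type cells. In malignant against wild type cells it was 0.49 and 1.045. The summed CPM of the 45 mitosis genes divided by that of the replication genes, a ratio that does not depend on the scaling of libraries, was 1.44 and 1.27 in wild type, 1.15 and 1.145 in premalignant and 0.883 and 1.01 in malignant libraries. The 3 stages did not overlap. The log2 of the ratio differed by -0.24 between premalignant and wild type, by -0.28 between malignant and premalignant and by -0.52 between malignant and wild type cells. The ratio was not among the readings planned beforehand. With 2 libraries a stage, an exact two-sided permutation test cannot give a p below 0.333, so no test is given. Without Mki67, per length, or as a difference of mean log2 levels, the 3 differences were -0.26 to -0.29, -0.26 to -0.31 and -0.52 to -0.60. With a library left out they were smallest at -0.148 (without wild type replicate 1), -0.187 (without malignant replicate 1) and -0.426 (without malignant replicate 1), and largest at -0.33, -0.378 and -0.616.

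**Figure D5:**
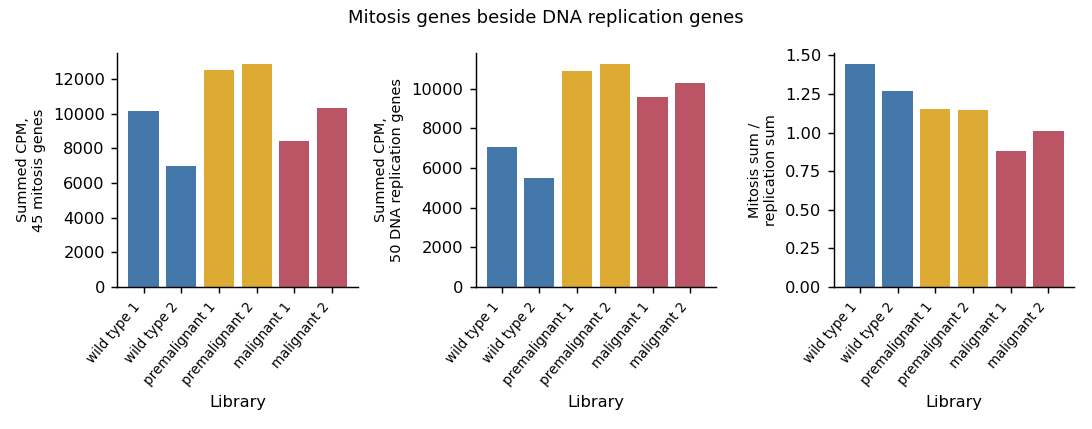
Summed CPM of the 45 mitosis genes (left) and of 50 DNA replication genes (middle), and the ratio of the sums (right), one bar a library and colours by stage. Both sums are highest in the premalignant libraries, and the ratio runs from 1.44 in wild type replicate 1 to 0.883 in malignant replicate 1 with no overlap between stages.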

How the data were processed

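The authors prepared polyadenylated RNA libraries with the TruSeq v2 kit, sequenced 50-base single reads, aligned them with TopHat and counted reads per Ensembl gene with HTSeq. The deposited values are raw counts for each library, without normalization. Per the labels, the processing notes name mm9, Bowtie, CASAVA 1.8.2 and DESeq. The HTSeq options and the annotation release are not given in the sources used here. The deposited tables of DEseq results (means, fold changes and p-values) were not used.

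Symbols, coordinates and exon lengths came from GENCODE vM1 (mm9), which names 37205 of 37991 counted genes; the other 786 have no symbol. Counts were fitted with edgeR 4.0.16 in R 4.3.3 (filterByExpr, TMM, quasi-likelihood test, all 6 libraries in 1 fit) and p-values were adjusted over all 16683 genes by Benjamini-Hochberg. A gene was called at FDR of at most 0.1 and a log2 fold change of at least 0.5 in size. The SE given with a fold change is its size divided by the square root of the quasi-likelihood F statistic. It rests on a spread estimated over all 6 libraries. The fit was tested on simulated data, with changes larger than those of any member. It missed a part of these changes in the comparisons with malignant cells, and its power for smaller changes was not measured. A gene that was not called may therefore still differ. Alternatives were DESeq2 1.42.0, upper-quartile and library-total scaling, 2 filters on low counts, a replicate block, a fit of the 2 stages compared, other thresholds and each library left out. Within-replicate values add 0.5 CPM before log2. The labels call the libraries replicates and the study's methods name animals as replicates; no spike-in was used here, so total RNA per cell is not measured.

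Members and gene lists were chosen with earlier results of these data known. Named are all members, the 3 largest rises and falls of the other mitosis genes against wild type (mean of 10 CPM or more in 1 of the stages) and those called between premalignant and malignant cells. Near-identical copies are stretches of at least 50 bases at 98% identity or more (blastn 2.17.0). The promoter printed for each role was that of its most abundant member, with bases inside RefSeq genes left out and the next member taken where under 150 bases or no motif remained. T or NK markers summed to 58.5 to 207 CPM and mature B or plasma markers to 34.6 to 262 CPM over the 6 libraries.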

Additional observations from a re-analysis of the deposited data

How the results depend on the processing

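The direction of the members' median held in every fit for premalignant against wild type (0.325 to 0.93) and for malignant against premalignant cells (-0.56 to -0.31). For malignant against wild type cells it was 0.162, -0.000473 with upper-quartile scaling, -0.132 with library totals and -0.110 to 0.493 with a library left out. Members called numbered 21 in premalignant against wild type, 11 at FDR of at most 0.05, 3 at a log2 fold change of at least 1, 8 with library totals and 2 to 33 with a library left out. In malignant against premalignant cells the number was 1, 5 with DESeq2, 14 without a filter and 0 to 11 with a library left out. In malignant against wild type cells it was 8, 1 at a log2 fold change of at least 1 and 6 to 19 with a library left out. Of the 21 premalignant calls, 7 held in every other fit of the 6 libraries at the same thresholds and 2 of these also with each library left out; the causes were not tested.

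Of the other mitosis genes, 43 were called in premalignant against wild type cells, 28 at FDR of at most 0.05, 6 at a log2 fold change of at least 1, 23 with library totals and 6 to 65 with a library left out. In malignant against premalignant cells 3 were called, 8 with DESeq2, 0 at FDR of at most 0.05, 1 at a log2 fold change of at least 1, 5 with at least 10 counts in every library or with upper-quartile scaling, 21 without a filter and 0 to 17 with a library left out. In malignant against wild type cells 28 were called and 10 past a log2 fold change of 1. Among DNA replication genes, 40 were called in premalignant against wild type cells, 18 at a log2 fold change of at least 1 and 12 to 44 with a library left out. In malignant against wild type cells 37 were called and 16 at a log2 fold change of at least 1. In malignant against premalignant cells 2 were called, 0 at FDR of at most 0.05, at a log2 fold change of at least 1 or with only the 2 stages fitted, 4 without a filter and 0 to 6 with a library left out.

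With the replicate number as a block, 23, 1 and 6 members were called in the 3 comparisons; Mki67 lost its premalignant call, and Cdk1 and Kif20a their malignant calls. Deviations of same-numbered libraries correlated at 0.376 (wild type and premalignant), 0.0895 and 0.022, and with 2 pairs they share only a number. Replicate 1 is the deeper library in each stage, so depth and replicate number cannot be told apart.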

Other observations

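The 108 other mitosis genes were also read by role in premalignant against wild type cells, where 19% of all genes were called higher. Of 33 genes listed under kinetochore and checkpoint, 16 rose and 0 fell, with a median log2 fold change of 0.555. That list includes the centriole gene Cenpj. Among the 7 kinetochore and centromere members, 0 had passed. Of 27 spindle and motor genes 11 rose, with a median of 0.45. Of 25 genes of the APC/C, condensin and cytokinesis 6 rose, with a median of 0.42, the role nearest to the share over all genes, and of 23 kinases and regulators 10 rose, with a median of 0.66. In malignant against premalignant cells, 2.45% of all genes were called lower. The spindle and motor genes had the lowest of the 4 medians there, -0.46, with 1 gene, Spag5, called lower. The other 3 medians were -0.30, -0.26 and -0.14. The difference between these roles was not tested.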
